A study of Mus musculus with 6 samples.

Results

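The ERK feedback inhibitors and ETV factors examined here are 10 of the 78298 genes in the deposited table. They were chosen by symbol: the phosphatase genes Dusp4 and Dusp6, the Sprouty genes Spry1, Spry2 and Spry4, the SPRED genes Spred1 and Spred2, and the ETS transcription factor genes Etv1, Etv4 and Etv5. Each symbol matched 1 row of the table. RNA had been sequenced from mouse epiblast-like cells (EpiLCs, a cultured state resembling the epiblast after implantation) in 3 libraries and from mouse embryonic stem cells (ESCs, the cultured naive state) in 3 libraries. Both groups carried the label WT and came from 1 line, BVSC clone H18, so a difference specific to that clone cannot be told apart from one of the cell states in general. Culture medium, days of differentiation and added factors are not given in the sources used here, and a 0uM tag in the column names is not explained by any label.

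FGF receptors signal through RAS, RAF and MEK to the kinase ERK, and in mouse ESCs this cascade is known as a drive out of the naive state. ERK activity induces its own inhibitors. DUSP6 removes the activating phosphates from ERK in the cytoplasm and DUSP4 does so in the nucleus, Sprouty proteins dampen signalling between the receptor and RAF, and SPRED proteins bring the RAS inhibitor neurofibromin to the membrane. ETV1, ETV4 and ETV5 form the PEA3 subfamily of ETS factors, act downstream of FGF signals, and have genes that are repressed in mammals by Capicua, the product of Cic. Messenger RNA of these genes is often read as a record of ERK activity, which was not itself measured here.

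Promoter windows from RefSeq (GRCm38.p6, 250 bases before to 50 after a transcription start) were read for 7 of the 10 genes, 9 windows in all. No window of Dusp4, Etv4 or Spry4 was included. That build differs from the one named for the deposited table, so these coordinates apply to the sequences alone. The windows of Dusp6, the gene with the largest rise, of Spry2, the gene that fell, and of Spred1, which rose and has no match, are shown 5′ to 3′ on the gene's strand. Capitals mark sequence matches to octamers that Capicua binds.
Dusp6 (chr10:99262981-99263280, plus strand): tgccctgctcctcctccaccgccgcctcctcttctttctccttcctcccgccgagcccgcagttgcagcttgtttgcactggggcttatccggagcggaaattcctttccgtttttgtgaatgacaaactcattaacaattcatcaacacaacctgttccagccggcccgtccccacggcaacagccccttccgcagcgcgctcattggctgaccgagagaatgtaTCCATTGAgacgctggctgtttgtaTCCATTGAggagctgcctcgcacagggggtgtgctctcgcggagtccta
Spry2 (chr14:105896770-105897069, minus strand): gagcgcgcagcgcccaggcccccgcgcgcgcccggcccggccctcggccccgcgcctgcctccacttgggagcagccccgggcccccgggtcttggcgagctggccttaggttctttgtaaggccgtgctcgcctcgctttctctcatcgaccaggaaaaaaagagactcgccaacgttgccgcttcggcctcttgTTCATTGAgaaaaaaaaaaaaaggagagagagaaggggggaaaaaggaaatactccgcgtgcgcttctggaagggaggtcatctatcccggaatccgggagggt
Spred1 (chr2:117120821-117121120, plus strand): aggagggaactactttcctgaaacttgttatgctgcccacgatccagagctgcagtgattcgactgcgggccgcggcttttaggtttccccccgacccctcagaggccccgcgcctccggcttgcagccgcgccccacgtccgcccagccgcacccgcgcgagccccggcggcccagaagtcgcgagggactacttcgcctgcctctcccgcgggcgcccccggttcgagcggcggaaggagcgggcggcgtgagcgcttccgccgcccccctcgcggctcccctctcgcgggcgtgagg

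The octamers searched were TGAATGAA, TCAATGAA, TGAATGGA and TCAATGGA on both strands. TTCATTGA, the reverse complement of TCAATGAA, shares letters with the STAT site TTCNNNGAA. The Dusp6 window held 2 matches to TCAATGGA on the reverse strand, at positions -24 to -17 and 2 to 9 counted from the start site, the first transcribed base being position 1. The Spry2 window held 1 match to TCAATGAA on the reverse strand, from -54 to -47. The other 7 windows (1 each of Spred1, Spry1 and Spred2, and 2 each of Etv1 and Etv5) held none, and over 32851 promoter windows of the same length 3.84% held at least 1 octamer. The ETS site CCGGAAGT, present in 3.89% of all windows, was in none of the 9. Its core CCGGAA, which lies within it, was in 1 of the 9, at positions 34 to 39 of Spry2, and in 14.9% of all windows. The AP-1 site TGANTCA was in none of the 9 and in 7.81% of all windows, and the STAT site was in none of the 9 and in 8.30% of all windows. Matches thus lay in the windows of a gene that rose and of the gene that fell. Binding of Capicua to them, and any part of it in the changes, was not tested. GC content ranged from 44% and 48.7% in the Etv1 windows to 74.0% in 1 of the Etv5 windows, with a median of 52.7% over all windows.

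Values are TPM, a transcript abundance scaled for length and library size, so levels can be compared between genes but the read depth behind a value is unknown. Each log2 fold change is the EpiLC mean less the ESC mean of log2(TPM + 1), a scale that understates changes of weakly expressed genes, and is given with its standard error (SE). Adjusted p-values are from limma over all 14036 genes with a mean of at least 1 TPM, with a threshold of 0.05, and all 10 genes passed that filter. The titles mark the libraries as biological replicates without giving the number of cultures or passages behind them, and every p-value reflects the scatter of these libraries. The naive markers Klf4, Esrrb, Tfcp2l1, Tbx3 and Prdm14 were all lower in EpiLCs, and the formative markers Fgf5, Otx2, Pou3f1 and Dnmt3b were all higher. Summed over the 4 formative markers, EpiLC libraries held 439 to 633 TPM and ESC libraries 13.9 to 15.8 TPM.

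Of the 10 genes, 8 rose, 1 fell (Spry2) and 1 did not pass the test (Dusp4). Over all tested genes 66.9% passed, 36.1% higher and 30.9% lower in EpiLCs, so a change as such was common. The median log2 fold change of the 10 was 1.32, beside 0.04 over all tested genes. At a threshold of 2-fold on the same scale, 6 of the 10 were higher (Dusp6, Spry1, Spry4, Spred1, Etv1 and Etv4) and 0 lower, where all tested genes gave 19.3% in either direction, 9.87% higher and 9.4% lower. With a 2-fold change as the null hypothesis, 5 of the 10 passed, all of them higher (Dusp6, Spry4, Spred1, Etv1 and Etv4), against 9.9% of all tested genes in either direction and 5.16% higher. The 3 EpiLC values stood apart from the 3 ESC values for 9 of the 10, with 8 higher and 1 lower. Over all tested genes 71.5% did so, 38.4% higher and 33.1% lower. The genes were picked with earlier results of these data known, so these counts describe them and are no independent evidence of a direction. In bulk samples, fewer cells expressing a gene and less RNA per cell cannot be told apart.

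**Figure D1:**
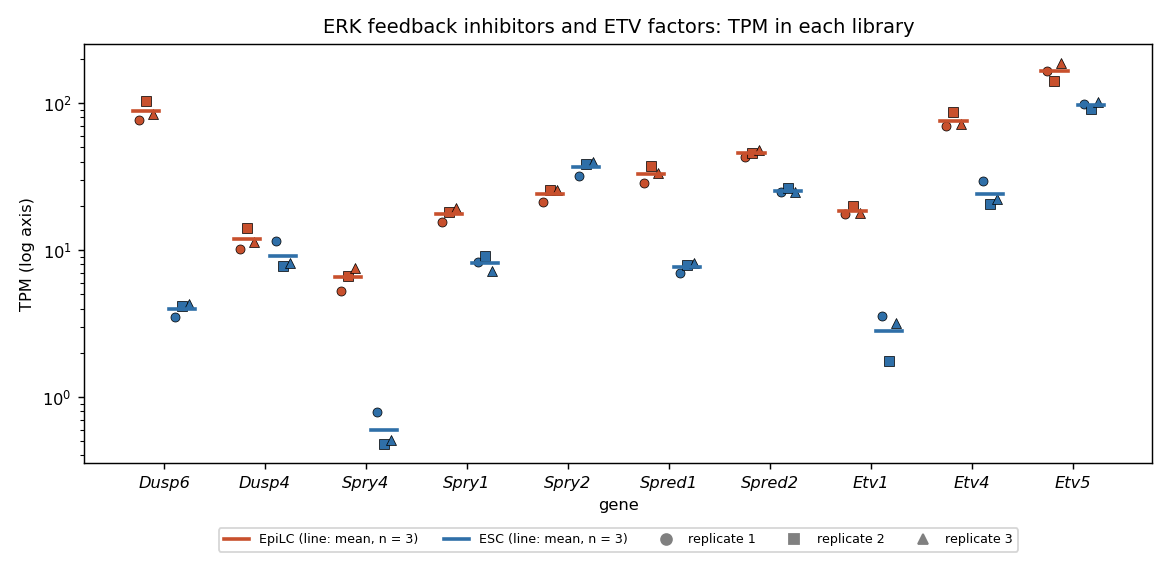
TPM of each gene (log axis) in the 3 EpiLC libraries (red, left of each pair) and the 3 ESC libraries (blue, right), with a line at each mean and marker shapes for replicate numbers. Dusp6 shows the widest gap (76.4 to 103 against 3.48 to 4.27 TPM), Spry2 is lower in EpiLCs, and the Dusp4 groups overlap.

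The ERK phosphatase gene Dusp6 (ENSMUSG00000019960) had 76.4, 103 and 85.1 TPM in EpiLCs, against 3.48, 4.14 and 4.27 TPM in ESCs. The lowest EpiLC library was many times above the highest ESC library. Mean Dusp6 TPM was 22.3 times higher in EpiLCs, and the log2 fold change of 4.16 (SE 0.12, limma adjusted p = 2.6e-07) was the 20th largest rise among the 14036 tested genes. In order of level, Dusp6 stood at place 1765 of the tested genes in EpiLCs and at place 10454 in ESCs.

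Dusp4 (ENSMUSG00000031530), whose product acts on ERK and JNK in the nucleus, had 10.2, 14.1 and 11.3 TPM in EpiLCs and 11.5, 7.77 and 8.14 TPM in ESCs. ESC replicate 1 lay within the EpiLC range. The log2 fold change was 0.35 (SE 0.17, limma adjusted p = 0.095). Leaving out that library gave 0.51, and Dusp4 passed (adjusted p = 0.019, and 0.019 to 1 over the 16 alternatives), so the outcome for this gene turned on 1 library.

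The pair therefore exchanged places within a library. Dusp6 made up 88.2%, 88.0% and 88.3% of their summed TPM in EpiLCs, against 23.2%, 34.8% and 34.4% in ESCs. The log2 ratio of Dusp6 to Dusp4 was 2.80 ± 0.01 in EpiLCs and -1.02 ± 0.40 in ESCs (SD, n = 3 each), a difference of 3.81. Among the 10 catalytically active MAP kinase phosphatase genes (Dusp1, Dusp2, Dusp4 to Dusp10 and Dusp16), Dusp6 ranked second by mean TPM in EpiLCs and sixth in ESCs. Its share of their summed TPM was 16.1%, 26.0% and 18.5% in EpiLC libraries, against 1.65%, 2.80% and 2.05% in ESC libraries. Dusp9, another phosphatase gene with a preference for ERK, was the most abundant of them by mean in both states, although in ESCs its range of 57.0 to 99.8 TPM overlapped that of Dusp1 (54.2 to 93.3 TPM).

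Among the Sprouty genes, Spry4 (ENSMUSG00000024427) had 5.30, 6.68 and 7.55 TPM in EpiLCs and 0.793, 0.477 and 0.512 TPM in ESCs. It was the least abundant of the 10 genes in both states. Spry4 rose by 2.23 on the log2 scale (SE 0.15, limma adjusted p = 9.6e-06), and by 3.27 with a pseudocount of 0.1 in place of 1. The ratio of mean TPM was 10.97.

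Spry1 (ENSMUSG00000037211) had 15.6, 18.2 and 19.3 TPM in EpiLCs and 8.25, 9.18 and 7.22 TPM in ESCs. All EpiLC values lay above all ESC values, and the log2 fold change was 1.02 (SE 0.11, limma adjusted p = 1.2e-04). An annotated gene on the opposite strand, Gm42922, overlaps exons of Spry1 and reached at most 0.122 TPM in any library. It was the 1 gene found to overlap exons of any of the 10 in GENCODE M21. The annotation release behind the deposited table is not given, and overlaps with genes absent from M21 were not sought.

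Spry2 (ENSMUSG00000022114) went the other way. It had 21.4, 25.5 and 25.6 TPM in EpiLCs and 31.7, 38.8 and 39.9 TPM in ESCs. The groups did not overlap, with replicate 1 the lowest in both. Spry2 fell by 0.58 on the log2 scale (SE 0.11, limma adjusted p = 0.0018), and mean TPM was 1.52 times higher in ESCs.

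Summed over the 3 Sprouty genes, EpiLCs held 42.3, 50.4 and 52.4 TPM and ESCs 40.8, 48.4 and 47.6 TPM. These sums overlapped, while the makeup behind them differed. Spry2 gave 50.03 ± 1.05% of the sum in EpiLCs and 80.5 ± 3.00% in ESCs (SD, n = 3 each). Spry1 gave 36.6 ± 0.389% in EpiLCs and 18.1 ± 2.64% in ESCs, and Spry4 gave 13.4 ± 0.937% in EpiLCs and 1.33 ± 0.530% in ESCs. Spry3 was not analysed here.

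**Figure D2:**
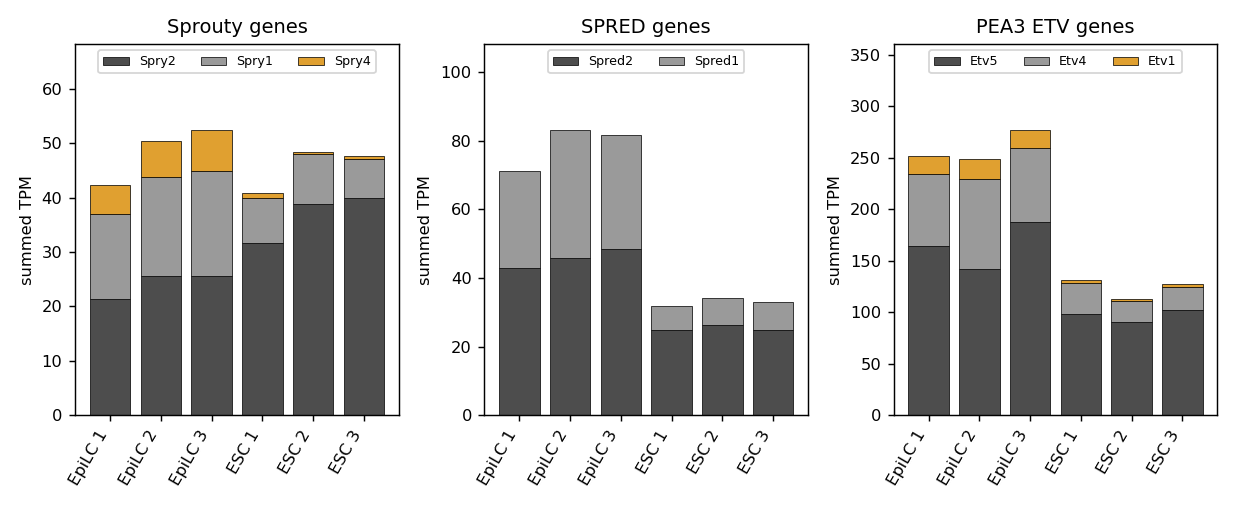
Summed TPM of the Sprouty, SPRED and PEA3 ETV genes in each library, EpiLCs left of ESCs, with bars stacked by gene and axes starting at 0. The Sprouty sums overlap (42.3 to 52.4 TPM in EpiLCs and 40.8 to 48.4 TPM in ESCs) while Spry2 makes up less of them in EpiLCs, and the SPRED and ETV sums are higher in every EpiLC library.

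Both SPRED genes rose. Spred1 (ENSMUSG00000027351) had 28.4, 37.3 and 33.3 TPM in EpiLCs and 7.03, 7.90 and 8.14 TPM in ESCs, a log2 fold change of 1.96 (SE 0.11, limma adjusted p = 3.7e-06). Spred2 (ENSMUSG00000045671) had 42.8, 45.9 and 48.3 TPM in EpiLCs and 24.8, 26.4 and 24.8 TPM in ESCs, a log2 fold change of 0.82 (SE 0.07, limma adjusted p = 2.2e-05). Neither gene's groups overlapped, and Spred2 was the more abundant of the pair in all 6 libraries. Their sum was 78.7 ± 6.48 TPM in EpiLCs and 33.0 ± 1.23 TPM in ESCs, and the share of Spred1 in it was 41.8 ± 2.62% in EpiLCs and 23.3 ± 1.36% in ESCs (SD, n = 3 each). Of the 7 feedback inhibitor genes, these 2 and Dusp6 gave the larger part of the summed TPM in EpiLCs, where Dusp6 alone made up 38.8 ± 2.19%, against 4.31 ± 0.316% in ESCs. Spry2 made up 10.7 ± 0.472% in EpiLCs and 40.03 ± 3.45% in ESCs, where it was the largest single contributor.

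The 3 ETV genes all rose, each by a different amount. Etv1 (ENSMUSG00000004151) had 17.5, 19.996 and 17.8 TPM in EpiLCs and 3.56, 1.77 and 3.17 TPM in ESCs, a log2 fold change of 2.37 (SE 0.18, limma adjusted p = 1.7e-05). Etv4 (ENSMUSG00000017724) had 69.6, 86.6 and 72.0 TPM in EpiLCs and 29.7, 20.5 and 22.4 TPM in ESCs, a log2 fold change of 1.62 (SE 0.14, limma adjusted p = 3.1e-05). Etv5 (ENSMUSG00000013089) had 164, 143 and 188 TPM in EpiLCs and 98.4, 90.9 and 102 TPM in ESCs, a log2 fold change of 0.75 (SE 0.10, limma adjusted p = 2.7e-04). None of the 3 overlapped between groups. The least abundant, Etv1, had the largest log2 fold change, and the most abundant, Etv5, the smallest. EpiLC replicate 2 had the highest Etv1 and Etv4 and the lowest Etv5 of its group, and ESC replicate 2 had the lowest value of all 3 in its group.

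Together Etv1, Etv4 and Etv5 reached 252, 249 and 277 TPM in EpiLCs, against 132, 113 and 128 TPM in ESCs. Etv5 made up 63.4 ± 5.47% of that sum in EpiLCs and 78.3 ± 3.12% in ESCs (SD, n = 3 each). Over 26 ETS family genes, the 3 held 53.6%, 54.2% and 55.7% of the summed TPM in EpiLCs and 26.0%, 22.1% and 25.2% in ESCs. In EpiLCs Etv5 had the highest level of the 26 (143 to 188 TPM) and Etv4 was second by mean, with a range (69.6 to 86.6 TPM) that overlapped that of Gabpa (59.4 to 70.5 TPM). In ESCs the epithelial ETS gene Elf3 stood above Etv5, at 127 to 156 TPM.

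**Figure D3:**
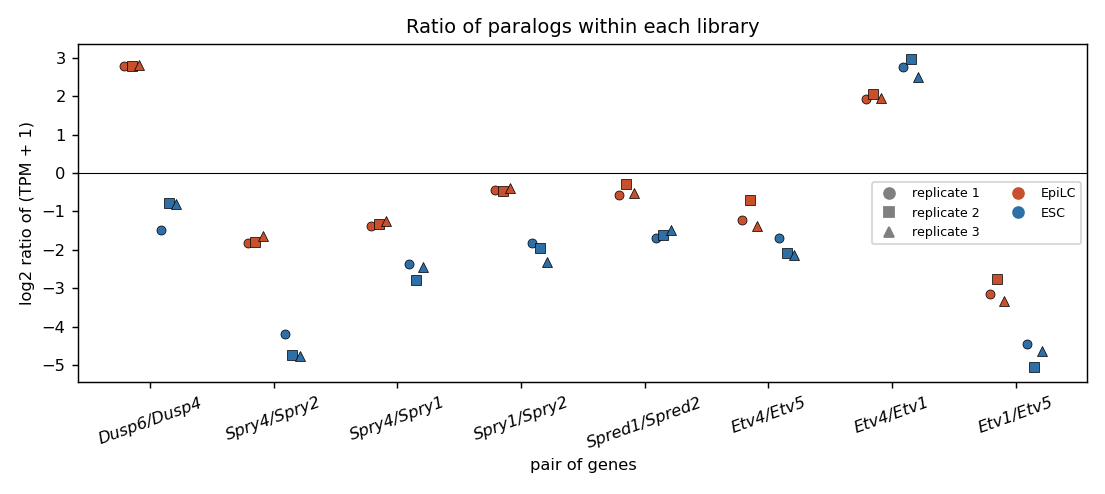
Log2 ratio of (TPM + 1) for 8 pairs of related genes within each library, EpiLCs (red) left of ESCs (blue), with marker shapes for replicate numbers. No pair overlaps between groups, though how often other gene pairs separate in this way was not counted. Dusp6/Dusp4 changes sign, and Etv4/Etv1 is the pair with lower values in EpiLCs.

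The ratio of related genes within a library was compared for 8 pairs. The differences, EpiLC minus ESC on the log2 scale, were 3.81 for Dusp6/Dusp4, 2.81 for Spry4/Spry2, 1.21 for Spry4/Spry1 and 1.60 for Spry1/Spry2. With a pseudocount of 0.1, which weighs low values more, Spry4/Spry2 differed by 3.87 and Spry4/Spry1 by 2.17. With the pseudocount of 1 again, the differences were 1.14 for Spred1/Spred2, 0.87 for Etv4/Etv5, 1.62 for Etv1/Etv5 and -0.75 for Etv4/Etv1. In all 8 pairs the EpiLC libraries lay on 1 side of the ESC libraries. Of single tested genes, 71.5% kept the groups apart, and the share over other gene pairs was not counted. The Sprouty and ETV pairs reuse the same genes, so the 8 are not independent results. Each pair had p = 0.1 by a two-sided exact permutation test, and p = 0.1 after adjustment over the 8 pairs. That is the smallest value that 3 against 3 libraries allow, so no pair could pass the threshold.

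In order of level, EpiLCs ran Etv5, Dusp6, Etv4, Spred2, Spred1, Spry2, Etv1, Spry1, Dusp4 and Spry4. The ranges of neighbours overlapped for Dusp6 and Etv4 and for Etv1 and Spry1. In ESCs the order was Etv5, Spry2, Spred2, Etv4, Dusp4, Spry1, Spred1, Dusp6, Etv1 and Spry4. There the ranges overlapped for Spred2 and Etv4, for Dusp4 and Spry1, for Spry1 and Spred1 and for Dusp6 and Etv1. Etv5 was first and Spry4 last in both states, and Dusp6 was second in EpiLCs and eighth in ESCs.

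Within the EpiLC group, replicate 1 had the lowest value for 9 of the 10 genes, all but Etv5, while replicates 2 and 3 each had the highest value for 5 genes. No such order was seen in ESCs, where replicates 1, 2 and 3 had the lowest value for 3, 5 and 2 genes. The order was not counted over all tested genes. A shift of the whole library therefore cannot be told apart from one of these genes. The 4 formative markers were all highest in EpiLC replicate 3, but did not share 1 full order of the EpiLC libraries. Dnmt3b was lowest in replicate 1, at 367, 398 and 515 TPM in replicates 1, 2 and 3. Fgf5 was at 5.74, 3.61 and 14.8 TPM, Otx2 at 38.1, 22.9 and 59.5 TPM and Pou3f1 at 28.3, 27.9 and 44.1 TPM, each lowest in replicate 2. The within-group SD on the log2 scale ran from 0.09 for Spred2 to 0.22 for Spry4 in EpiLCs, beside a median of 0.11 over all tested genes. In ESCs it ran from 0.05 for Spred2 to 0.38 for Etv1, beside a median of 0.10.

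Markers of other cell types were read for the same libraries. Of 4 neural markers, 2 were tested and both were higher in EpiLCs, Sox1 at 11.1 ± 3.86 TPM in EpiLCs and 1.88 ± 0.449 TPM in ESCs, and Pax6 at 2.86 ± 0.891 TPM in EpiLCs and 0.248 ± 0.197 TPM in ESCs (SD, n = 3 each). Neurog2 stayed under 1 TPM in all libraries. The summed neural level was 9.22 to 18.3 TPM in EpiLCs and 2.19 to 2.99 TPM in ESCs. Of 5 fibroblast markers, Thy1 was the 1 tested and was higher in EpiLCs (11.2 ± 1.58 TPM, against 3.24 ± 1.05 TPM in ESCs, SD, n = 3 each), while Col1a2, Col3a1 and Postn stayed under 1 TPM throughout. Col1a1, which was not tested, was lower in EpiLCs, at 0.296 to 0.448 TPM, against 0.480 to 1.21 TPM in ESCs. The summed fibroblast level was 10.3 to 12.9 TPM in EpiLCs and 3.18 to 5.69 TPM in ESCs. Of 5 primitive endoderm markers, Gata4 was the 1 tested and was lower in EpiLCs, and the summed level was 0.949 to 2.12 TPM in EpiLCs and 5.02 to 5.88 TPM in ESCs. Of 5 mesoderm markers, Eomes was the 1 tested and was lower in EpiLCs, with sums of 3.54 to 4.25 TPM in EpiLCs and 6.56 to 8.14 TPM in ESCs. Of 4 trophoblast markers, Krt7 was the 1 tested and did not pass, with sums of 3.93 to 6.76 TPM in EpiLCs and 4.36 to 7.35 TPM in ESCs. Col3a1 was at 0 in all ESC libraries and Postn in all libraries but 1, no marker was at 0 in all 6, and their part in the results was not tested.

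The wider pathway was read through 5 lists. Of 7 tested paralogs of the feedback genes, 4 rose and 1 fell (median log2 fold change 0.67), beside 36.1% higher and 30.9% lower over all tested genes. Dusp5, which encodes a nuclear ERK phosphatase, had 12.4, 12.7 and 11.8 TPM in EpiLCs and 2.87, 1.70 and 2.66 TPM in ESCs, a log2 fold change of 1.98. Dusp9 rose by 1.58, to 288, 181 and 238 TPM in EpiLCs against 99.8, 57.0 and 79.1 TPM in ESCs. Spred3 rose by 1.70, with less than 1 TPM in each ESC library, and Dusp7, another cytoplasmic ERK phosphatase gene, by 0.67. The gene that fell was Dusp10, whose product prefers JNK and p38, by 0.47 on the log2 scale. It no longer passed when ESC replicate 1 was left out (adjusted p = 0.053, and 0.0047 to 1 over its alternatives). Dusp1 was at 66.5 ± 13.98 TPM in EpiLCs and 72.0 ± 19.8 TPM in ESCs and did not pass (SD, n = 3 each, limma adjusted p = 0.69).

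Of 24 tested genes of the cascade that these genes restrain, from Fgf4 and its receptors to ERK and its kinase targets, 12 rose, 6 fell and 6 did not pass (median 0.19), beside 66.9% called over all tested genes in 1 direction or the other. The receptor gene Fgfr2 rose by 2.31 to 9.21 ± 1.64 TPM in EpiLCs, against 1.05 ± 0.165 TPM in ESCs (SD, n = 3 each). The RAS gene Hras rose by 1.02, while the scaffold gene Ksr1 fell by 1.03 on the log2 scale.

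Of 15 tested partners and regulators of the 10 genes, 9 rose and 2 fell (median 0.41). Over all tested genes, 66.9% were called, 36.1% higher and 30.9% lower. Cic encodes the repressor whose octamers were matched in the Dusp6 and Spry2 windows above. It had 26.8, 29.6 and 28.1 TPM in EpiLCs and 37.8, 41.6 and 38.2 TPM in ESCs. Its groups did not overlap, and it fell by 0.46 on the log2 scale (SE 0.07, limma adjusted p = 4.8e-04). Trib1 and Trib2, adaptor genes of the COP1 ubiquitin ligase that also acts on ETV proteins, rose by 1.79 and 1.03. Tesk1, whose kinase binds Sprouty proteins, rose by 1.08, and the RAS inhibitor gene Rasa2 by 1.05. Siah2, which encodes a ubiquitin ligase for Sprouty proteins, was at 8.30 ± 0.773 TPM in EpiLCs and 8.69 ± 0.654 TPM in ESCs and did not pass (SD, n = 3 each, limma adjusted p = 0.62).

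Of 16 other ETS factor genes tested, 2 were higher and 8 lower (median -0.29), beside 66.9% called over all tested genes. Spic, known from macrophages, fell by 4.20 on the log2 scale, to 0.108 ± 0.0932 TPM in EpiLCs against 19.5 ± 3.11 TPM in ESCs (SD, n = 3 each). Elf3 had 37.7, 17.9 and 33.2 TPM in EpiLCs and 134, 156 and 127 TPM in ESCs and fell by 2.25, and Elf4 fell by 1.89. Etv2, known for blood and endothelial development, rose by 1.64 to at most 4.28 TPM. The ETS repressor gene Erf was at 27.9 ± 3.45 TPM in EpiLCs and 33.8 ± 3.43 TPM in ESCs and did not pass (SD, n = 3 each, limma adjusted p = 0.054). It passed without EpiLC replicate 2 (adjusted p = 0.023), with median-of-ratios scaling (0.027), with quantile normalization (0.047) and with a filter at 5 TPM (0.049), with a range of 0.014 to 1 over all alternatives.

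**Figure D4:**
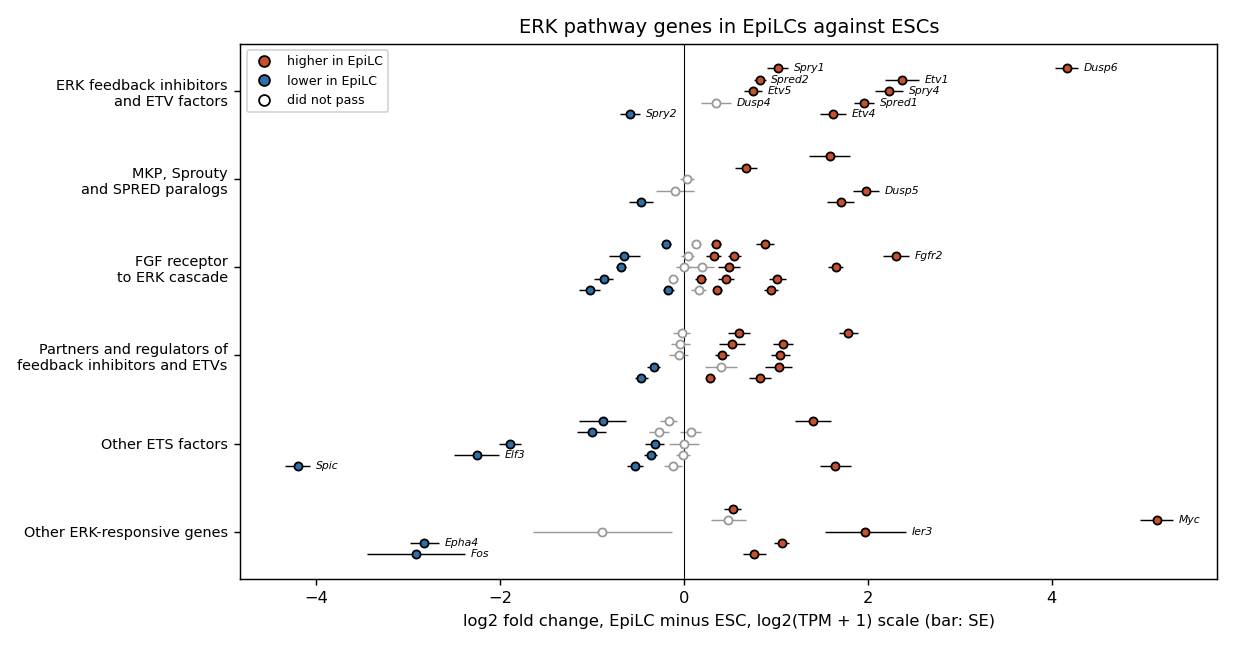
Log2 fold change (EpiLC minus ESC, log2(TPM + 1) scale) of each tested gene in 6 lists, with SE bars and colour for the limma call; names are given for the 10 genes and for changes beyond 1.9. The feedback inhibitors and ETV factors have a median of 1.32, and the other ETS factors a median of -0.29.

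Among 9 tested genes that respond to ERK in other settings, 5 rose and 2 fell (median 0.53). The shares over all tested genes were 36.1% higher and 30.9% lower. Myc had 56.3, 78.8 and 47.0 TPM in EpiLCs and 0.828, 0.587 and 0.715 TPM in ESCs, a log2 fold change of 5.14. Ier3 rose by 1.97, with EpiLC replicate 3 at 29.5 TPM and the other two at 7.57 and 8.44 TPM. Fos, an immediate early gene, was lower by a log2 fold change of -2.91, with 1.06, 1.80 and 4.13 TPM in EpiLCs and 10.6, 20.5 and 49.97 TPM in ESCs, and the receptor gene Epha4 fell by 2.82. Egr1 spread widely, up to 5.23 TPM in EpiLCs and up to 21.1 TPM in ESCs, and did not pass (limma adjusted p = 0.33). With ESC replicate 1 left out its log2 fold change was -1.67 and it passed (adjusted p = 0.048, and 0.034 to 1 over all alternatives). Fos thus changed in the opposite direction to Dusp6, Spry4, Spred1 and the ETV genes in these libraries.

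The genes whose pattern over the 6 libraries was most like that of Dusp6 were sought among 10093 tested genes of at least 5 TPM on average, by Euclidean distance between centred log2(TPM + 1) values. Predicted genes and pseudogenes were left out. The closest were Mir670hg (distance 0.25), Utf1 (0.34), Myl9 (0.37), Dnmt3a (0.39) and Wt1 (0.43), with log2 fold changes of 3.92 to 4.33 beside 4.16 for Dusp6. The likeness in fold change follows from the search itself. Mir670hg was listed at 0 TPM in all ESC libraries, where Myl9 and Wt1 averaged 0.056 and 0.062 TPM. The pseudocount of 1 therefore limits the log2 fold changes of these 3. For Spry2 they were Myh9 (0.17), Lnpep (0.19), Fnip1 (0.20), Immp1l (0.21) and Git2 (0.21), with log2 fold changes of -0.63 to -0.52 beside -0.58 for Spry2.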

How the data were processed

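The authors deposited 1 table of TPM values, with 1 column for each of the 3 EpiLC and 3 ESC libraries, and all 6 columns matched a sample by group and replicate number. Per the labels' protocols, poly(A) RNA was used and strand was kept. Per the submitters' processing notes, the build was mm39/GRCm39 and the tools included Salmon, STAR, Trim Galore and FastQC. Annotation release and the summing of transcripts are not given in the sources used here, nor is use of strand in counting. TPM keeps no depth, so no count model or counting interval was used.

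Log2(TPM + 1) values of genes with a mean of at least 1 TPM were compared with limma 3.58.1 in R 4.3.3 (variance trend, two-sided, Benjamini-Hochberg over all 14036 genes, threshold 0.05), after a check on simulated data. Paralog ratios were tested by exact permutation (scipy 1.17.1). Tables used Python 3.11.15 with pandas 2.3.3 and plots matplotlib 3.10.9. GENCODE M21 gave exon overlaps by gene identifier.

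The genes, lists, motifs and tests were chosen with earlier results of these data known. From each list the text names up to 4 called genes with the largest change, the gene with the largest change in the less common direction and the most abundant gene that did not pass; some genes are not reported here. Alternatives were pseudocounts, filters, scalings, variance and weight settings, a replicate block, a test against a 2-fold change and leaving out each library.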

Additional observations from a re-analysis of the deposited data

How the results depend on the processing

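For the 10 genes, 154 of 159 alternative results kept their direction and side of the threshold, and none reversed. With a filter at 5 TPM, Spry4 was not tested. The exceptions were Dusp4 without ESC replicate 1 and Spry1, Spry2, Spred2 and Etv5 in the test against a 2-fold change. That test, whose null is stricter by construction, left 5 of the 10 genes higher and 0 lower (724 and 666 over all genes). By list it left 2 paralogs higher and 0 lower, 2 cascade genes higher and 0 lower, and 1 partner higher and 0 lower. It also left 1 other ETS gene higher and 3 lower, and 1 ERK-responsive gene higher and 2 lower. A filter at 5 TPM left 0 paralogs lower and 0 other ETS genes higher, because fewer genes were tested. Leaving out 1 library moved the count of paralogs that were lower between 0 and 1. All 64 alternative paralog ratios kept their direction.

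Replicate numbers were not taken to pair the libraries: deviations of same-numbered libraries correlated at 0.10, 0.14 and 0.06 across genes, although each library correlated best with its own number. With a replicate block the same counts were found for the 10 genes, 8 higher and 1 lower, and over all genes 5135 were higher and 4477 lower, against 5062 and 4335 without it. Erf and Egr1 passed with the block (limma adjusted p = 0.014 and 0.034).

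The depth of TPM values is unknown, so weakly expressed genes such as Spry4 in ESCs carry an unstated counting error.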

Other observations

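Other genes of the cascade, picked after their values were seen, changed in both directions. Braf, which encodes 1 of the RAF kinases, had 29.7 ± 2.00 TPM in EpiLCs and 14.9 ± 0.790 TPM in ESCs and rose by 0.94 on the log2 scale (SD, n = 3 each, limma adjusted p = 2.4e-05). Of the ERK-activated RSK kinase genes, Rps6ka3 rose by 0.45 and Rps6ka1 fell by 0.68, the second with 70.8 ± 2.07 TPM in EpiLCs and 114 ± 5.56 TPM in ESCs (SD, n = 3 each, limma adjusted p = 2.0e-05). The ligand gene Fgf4 fell by 0.87, with 96.4 ± 12.3 TPM in EpiLCs and 177 ± 15.7 TPM in ESCs (SD, n = 3 each, limma adjusted p = 1.4e-04).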
